A study of Mus musculus with 58 samples.

Results

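The chemokine receptors described here are Cx3cr1, Ccr1, Ccr2, Ccrl2 and Cxcr4, 5 of the 47643 genes counted in every library. They were chosen by symbol, and each symbol was found once among the Ensembl identifiers of the count tables. RNA of mouse microglia had been sequenced in 34 libraries that form 8 groups and 4 comparisons. The 24 cortex samples of the series were not analysed here.

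Primary microglia, shaken off mixed glial cultures of newborn wildtype mice, received full-length tau fibrils at 2 µg/ml for 24 h or vehicle, with 4 libraries each. Adult microglia were isolated with CD11b beads from 4 PS19 mice, which carry a human P301S tau transgene driven by the prion promoter, and from 4 non-transgenic mice (NTG), all males of 10.98 or 11.18 months. IkbkbCA microglia carried Cx3cr1-CreERT2 on 1 allele and, behind a floxed stop, a transgene of constitutively active IKKβ, the kinase that switches on NF-κB. Their IkbkbWT controls carried the same stop and transgene with intact Cx3cr1 alleles, and each group had 5 libraries. Ikbkb-/- microglia carried the same CreERT2 allele with floxed Ikbkb, and Ikbkb+/+ microglia carried floxed Ikbkb without CreERT2, with 4 libraries each. All 4 of these Ikbkb groups were primary cultures exposed to 4-hydroxytamoxifen. The CreERT2 sequence sits in 1 Cx3cr1 allele in both mutant groups and in neither control group, so an effect of the kinase on Cx3cr1 and the altered allele cannot be told apart within a comparison. No label says that the cultures of a group came from separate litters, and p-values then measure the spread between these libraries.

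Chemokine receptors are G protein-coupled receptors that sense gradients of small secreted proteins and steer the movement of leukocytes. Cx3cr1 binds fractalkine (Cx3cl1), which neurons display, and is a hallmark of resident microglia. Ccr1 binds Ccl3, Ccl5, Ccl6, Ccl7 and Ccl9, Ccr2 binds Ccl2, Ccl7 and Ccl12 and is known for drawing monocytes into tissue, and Cxcr4 binds Cxcl12 and retains cells in their niche. Ccrl2 is an atypical receptor that presents chemerin (Rarres2) on the cell surface without signalling through G proteins.

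The promoters are shown because NF-κB is the pathway that was switched on or removed in the Ikbkb groups. RefSeq promoters of GRCm38.p6, 250 bases before to 50 bases after a start site, were found for all 5 receptors, and those of the 4 receptors that passed the test in at least 1 comparison follow, read 5′ to 3′ on the gene's strand, with every match of GGGNNNNNCC on either strand in capitals, the core of the NF-κB motif.
Cx3cr1, chr9:120068247-120068546, minus strand: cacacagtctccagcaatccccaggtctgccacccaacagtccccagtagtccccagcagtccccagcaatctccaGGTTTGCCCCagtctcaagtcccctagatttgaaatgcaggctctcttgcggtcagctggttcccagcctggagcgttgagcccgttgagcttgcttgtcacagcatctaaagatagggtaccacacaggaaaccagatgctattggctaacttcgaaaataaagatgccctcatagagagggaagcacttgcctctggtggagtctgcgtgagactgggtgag
Ccr1, chr9:123968643-123968942, minus strand: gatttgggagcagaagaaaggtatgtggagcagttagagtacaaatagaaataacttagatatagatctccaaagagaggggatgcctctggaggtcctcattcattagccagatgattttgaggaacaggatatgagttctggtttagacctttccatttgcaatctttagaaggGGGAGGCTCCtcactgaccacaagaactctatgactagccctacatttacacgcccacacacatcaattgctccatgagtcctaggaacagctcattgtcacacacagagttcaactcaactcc
Ccrl2, chr9:111057469-111057768, minus strand: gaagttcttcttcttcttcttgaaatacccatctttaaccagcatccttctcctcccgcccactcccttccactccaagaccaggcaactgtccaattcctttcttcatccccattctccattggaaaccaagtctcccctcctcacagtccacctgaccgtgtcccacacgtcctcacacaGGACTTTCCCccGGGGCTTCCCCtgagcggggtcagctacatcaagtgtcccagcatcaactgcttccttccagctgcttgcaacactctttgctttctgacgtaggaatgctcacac
Cxcr4, chr1:128592250-128592549, minus strand: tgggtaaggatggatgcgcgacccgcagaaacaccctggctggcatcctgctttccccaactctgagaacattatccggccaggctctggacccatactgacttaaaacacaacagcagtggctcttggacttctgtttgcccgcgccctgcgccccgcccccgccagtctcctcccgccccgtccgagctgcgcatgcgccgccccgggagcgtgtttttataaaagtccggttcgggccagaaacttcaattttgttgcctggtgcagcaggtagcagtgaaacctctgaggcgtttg
The Ccrl2 promoter held 5 matches, some of them overlapping or the same bases read on both strands, between -68 and -46 from the start site. The promoters of Cx3cr1 (-174 to -165) and Ccr1 (-74 to -65) held 1 match each, and that of Cxcr4 held 0. Matches of this short motif were found in 50.8% of all 32851 promoters, and 5 or more in 5.44% of them. The letters GAAANNGAAA, an interferon-stimulated response element, occurred on either strand in 3.44% of all promoters and in 0 of the promoters of the 5 receptors. Ccrl2 has 3 start sites in the table, of which the one shown is the farthest upstream, and the promoters of the other 2, like that of Ccr2, held 0 matches of either motif. A match is a run of letters and no measured site.

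Of the 5 genes, 4 lie on chromosome 9 of GRCm38 (GENCODE M21). Ccrl2 spans 111054486 to 111057519, Cx3cr1 119901616 to 120069879, Ccr1 123962124 to 123968692 and Ccr2 124101950 to 124113557. Cxcr4 lies on chromosome 1 from 128588199 to 128592293. No exon of the receptors overlaps an exon of another gene on either strand.

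QuantSeq reads come from the 3′ ends of transcripts, so counts do not grow with gene length. The total count per library was 1672052 to 8349128, and floors drawn from counts cover counting error only. Confidence intervals come from the fit described below and also take in the spread between libraries. Values below are CPM, a gene's count scaled to a common library total, with edgeR's TMM factors evening out composition between libraries. Each comparison was fitted on its own libraries with edgeR's quasi-likelihood test over all genes that passed a filter on low counts, and a gene was called a differentially expressed gene (DEG) at a Benjamini-Hochberg false discovery rate (FDR) under 0.05. In bulk RNA, more cells of a type and more RNA per cell cannot be told apart. The CreERT2 groups and the age and source of the cells differ between experiments, so levels across the 8 groups are described without a test.

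Cx3cr1 had the highest CPM of the 5 receptors in every group, and adult microglia had the highest level of it. Across the 34 libraries normalized together, Cx3cr1 averaged 8476 ± 1132 CPM in NTG and 8459 ± 1977 CPM in PS19 microglia (SD, n = 4 each). Next came the tau-stimulated cultures with 3084 ± 272 CPM. Ikbkb+/+ (2334 CPM), IkbkbWT (1713 CPM), vehicle (1437 CPM), IkbkbCA (1179 CPM) and Ikbkb-/- (1046 CPM) followed in that order, and each of these overlapped its neighbour in range. The adult groups did not overlap any culture.

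Ccrl2 and Ccr2 were likewise highest in adult microglia. Ccrl2 averaged 490 ± 174 CPM in PS19 microglia and 459 ± 200 CPM in those of NTG mice, against 5.60 ± 1.94 CPM in vehicle-treated cultures, the lowest group. Ccr2 averaged 43.5 ± 8.64 CPM in NTG against 20.3 ± 8.43 CPM in PS19 microglia, and no culture group averaged more than the 3.31 ± 2.14 CPM of Ikbkb+/+.

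Ccr1 and Cxcr4 had other orders. Ccr1 was highest in the control cultures of the Ikbkb experiments, at 51.7 ± 9.26 CPM in IkbkbWT (n = 5) and 36.4 ± 10.3 CPM in Ikbkb+/+ (n = 4), and lowest in the tau experiment, at 1.17 ± 0.748 CPM in tau-stimulated and 1.04 ± 0.972 CPM in vehicle-treated cultures. Cxcr4 was highest in IkbkbCA (464 ± 66.6 CPM, n = 5), followed without overlap by Ikbkb-/- (295 ± 45.5 CPM), and lowest in NTG microglia (25.7 ± 3.64 CPM).

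**Figure D1:**
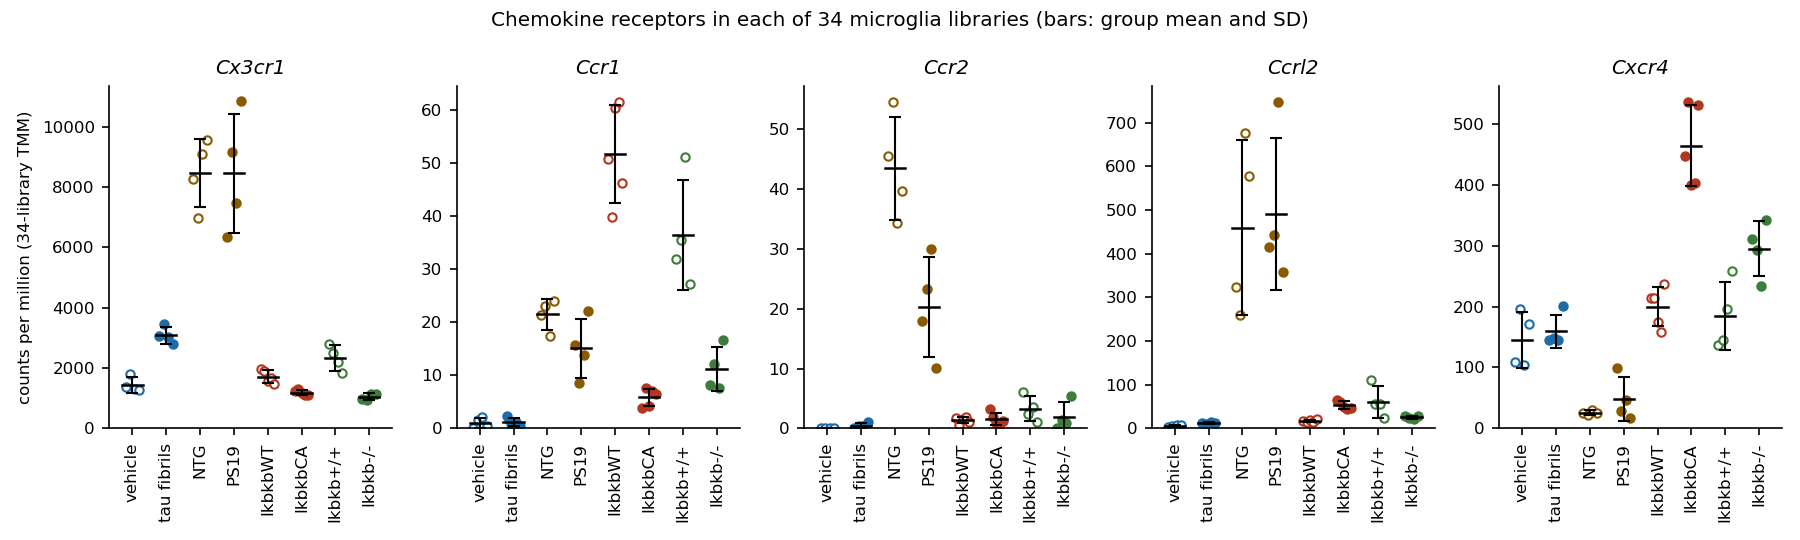
Each panel plots 1 receptor, with CPM (34-library TMM) on the y axis and the 8 groups on the x axis. Points are libraries, filled for treated or mutant groups and open for their controls, and bars give the group mean and SD. Cx3cr1, Ccr2 and Ccrl2 are highest in the adult NTG and PS19 groups, Ccr1 in IkbkbWT and Ikbkb+/+, and Cxcr4 in IkbkbCA.

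With tau fibrils, Cx3cr1 and Ccrl2 rose and Cxcr4 was not called, while Ccr1 and Ccr2 were too low to be tested. Of the 10408 genes tested, 14.5% were called higher and 15.4% lower, and the groups did not overlap in 28.3%, so that 2 of 3 tested receptors called higher stands against a high background.

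Cx3cr1 was counted at 3272, 3685, 3212 and 2989 CPM in the tau-stimulated libraries. It was at 1478, 1949, 1418 and 1365 CPM in the vehicle libraries. All 4 tau libraries lay above all 4 vehicle libraries, and the fitted change was 2.12-fold (95% confidence interval 1.75 to 2.57, log2 fold change 1.08, SE 0.14, FDR 4.87e-07, edgeR).

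Ccrl2 was low in these cultures, with 23, 22, 42 and 24 reads in the tau libraries and 6, 26, 17 and 14 reads in the vehicle libraries. Normalized, this came to 13.7, 9.82, 16.5 and 12.7 CPM against 3.46, 5.23, 7.96 and 7.56 CPM. The groups did not overlap, and the change was 2.19-fold (1.37 to 3.50, log2 fold change 1.13, SE 0.33, FDR 0.0103, edgeR). The call rests on 1 library, since without the third tau library, the highest, the log2 fold change was 1.00 with an FDR of 0.0569 (edgeR).

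Cxcr4 stood at 155, 158, 154 and 214 CPM with tau fibrils and at 118, 212, 113 and 186 CPM with vehicle. The groups overlapped, and the log2 fold change was 0.10 (95% confidence interval -0.25 to 0.45, SE 0.17, FDR 0.706, edgeR). Ccr1 had 4, 2, 3 and 1 reads with tau fibrils and 0, 8, 5 and 1 with vehicle. Ccr2 had 0, 1, 1 and 2 reads against 0 in every vehicle library, where a count of 0 still allows up to 0.604 to 1.73 CPM (3 counts per library). Both lay near or under 3 counts in most libraries, and no fold is given.

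The microglial part of the RNA moved with the same groups. The summed level of 14 microglia markers was 9351 to 11208 CPM in the tau libraries against 4237 to 5502 CPM in the vehicle libraries, and of the 13 tested, 7 rose and 1, Gpr34, fell, with a median log2 fold change of 1.11 against -0.01 over all genes. Markers of astrocytes summed to 375 to 441 CPM with tau against 696 to 746 CPM in the vehicle group, and those of neurons to 70.2 to 87.1 and 135 to 162 CPM. When the summed microglia markers, a scaling chosen after the data were seen, took the place of library size, the log2 fold change was 0.026 for Cx3cr1 (SE 0.14, FDR 0.867), 0.090 for Ccrl2 (SE 0.36, FDR 0.812) and -0.92 for Cxcr4 (SE 0.18, FDR 1.85e-05, edgeR). Cx3cr1 and Ccrl2 thus rose per library and not detectably per microglia marker. Under this scaling 8709 of 10408 genes were called lower and 313 higher, with a median log2 fold change of -1.06. The lower Cxcr4 value is near that median and says nothing particular of Cxcr4. Reads outside annotated genes were 16.3% to 22.2% with tau fibrils and 23.3% to 29.1% with vehicle, and their part in the result was not tested.

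**Figure D2:**
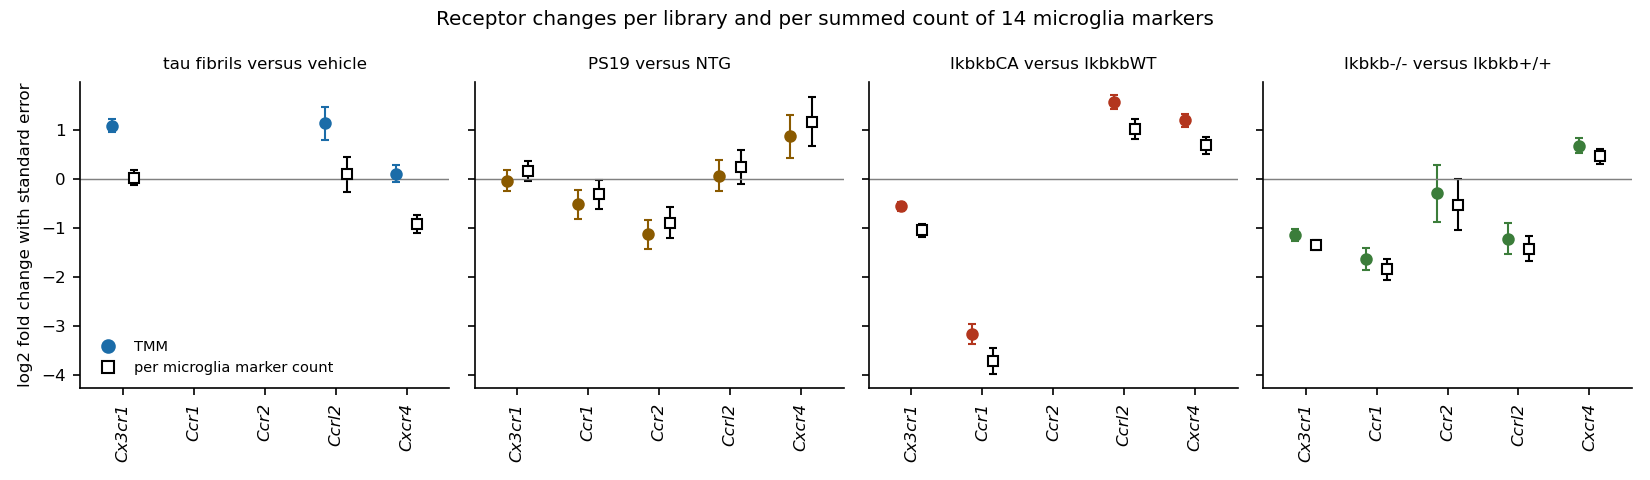
Each panel is 1 comparison, with the log2 fold change and its standard error on the y axis for each receptor on the x axis. Filled circles use TMM and open squares the summed count of 14 microglia markers in place of library size, and receptors without a point were not tested. With tau fibrils Cx3cr1 goes from 1.08 to 0.026, while in IkbkbCA and Ikbkb-/- the called receptors keep their side of 0. With the marker scaling the median over all genes is -1.06 with tau fibrils, 0.22 in PS19, -0.55 in IkbkbCA and -0.21 in Ikbkb-/-.

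In PS19 microglia none of the 5 receptors was called by edgeR. At an unadjusted p under 0.05 there was 1, Ccr2, and DESeq2 and limma-voom also called 0 of 5. Few genes were called in this comparison at all, with 0.0707% of 11323 higher and 0% lower (edgeR), and the groups did not overlap in 5.77%.

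Ccr2 was at 16.4, 20.1, 26.5 and 8.91 CPM in PS19 microglia. In NTG microglia it was at 41.4, 49.9, 30.6 and 36.5 CPM. The 4 PS19 mice lay below the 4 NTG mice, with a log2 fold change of -1.13 (95% confidence interval -1.78 to -0.48, SE 0.30, FDR 0.283, edgeR). Without a filter on low counts the same gene had an FDR of 0.00966, and the cause of that difference was not tested.

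Monocyte markers, which would accompany Ccr2 on blood cells, summed to 23.6 to 63.1 CPM in PS19 mice and 41.5 to 54.9 CPM in NTG mice, and 0 of their 7 tested genes were called by edgeR or had an unadjusted p under 0.05. Neutrophil markers ranged more widely, from 393 to 2392 CPM in PS19 and from 1506 to 2083 CPM in NTG. Their part in the Ccr2 values was not tested.

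The other receptors overlapped between the genotypes. Cx3cr1 was at 5802 to 9618 CPM in PS19 and 6387 to 8805 CPM in NTG (log2 fold change -0.04, 95% confidence interval -0.50 to 0.42, FDR 0.977, edgeR). Ccrl2 was at 317 to 659 CPM against 238 to 601 CPM (log2 fold change 0.06, -0.62 to 0.74, FDR 0.977, edgeR). Ccr1 was at 7.41 to 19.5 CPM in PS19 and 15.5 to 22.1 CPM in NTG (log2 fold change -0.52, SE 0.29, FDR 0.655, edgeR).

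Cxcr4 was at 90.4, 24.6, 40.4 and 15.1 CPM in PS19 mice, against 22.97, 20.3, 27.4 and 22.7 CPM in NTG mice. It spread far more among PS19 mice than among NTG mice, and the log2 fold change of 0.86 (SE 0.44, FDR 0.620, edgeR) fell to 0.19 without the first PS19 mouse.

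In IkbkbCA microglia all 4 tested receptors were called, 2 higher and 2 lower. Ccr1 fell 9.05-fold, Cx3cr1 fell to 0.676 of its control level, and Ccrl2 and Cxcr4 rose 2.95-fold and 2.28-fold. Ikbkb itself averaged 52.3 CPM in IkbkbCA and 46.7 CPM in IkbkbWT (log2 fold change 0.17, SE 0.12, FDR 0.405, edgeR), which checks little, since the share of transgene transcripts that the 3′ tags count is not known. Over 11697 genes, 7.31% were called higher and 7.16% lower, and the groups did not overlap in 12.7%.

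Ccrl2 was at 65.8, 60.4, 47.4, 45.9 and 46.1 CPM in IkbkbCA. The IkbkbWT libraries held 16.7, 15.6, 20.5, 15.7 and 21.4 CPM. The groups were far apart, with a log2 fold change of 1.56 (SE 0.14, FDR 2.85e-05, edgeR).

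Cxcr4 was at 450, 537, 399, 411 and 541 CPM in IkbkbCA. It was at 214, 216, 180, 166 and 248 CPM in IkbkbWT. All 5 IkbkbCA libraries exceeded all 5 controls, with a log2 fold change of 1.19 (SE 0.13, FDR 9.13e-05, edgeR).

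Ccr1 was at 3.89, 7.64, 4.21, 7.10 and 6.48 CPM in IkbkbCA, from 23 to 51 reads per library. It was at 50.7, 40.3, 62.3, 64.3 and 48.2 CPM in IkbkbWT, from 199 to 420 reads. The highest IkbkbCA library stayed far below the lowest control, and the log2 fold change was -3.18 (SE 0.20, FDR 3.06e-06, edgeR).

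Markers of border-associated macrophages moved with Ccr1. They summed to 506 to 1036 CPM in IkbkbCA and 1456 to 2127 CPM in IkbkbWT, and of 7 tested, 5 fell and 0 rose, among them the hyaluronan receptor Lyve1 (log2 fold change -4.56) and the mannose receptor Mrc1 (-2.07). All 8 of these markers had reads in the controls. Their part in the fall of Ccr1 was not tested.

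Cx3cr1 was at 1228, 1299, 1157, 1128 and 1126 CPM in IkbkbCA and at 1963, 1933, 1607, 1755 and 1520 CPM in IkbkbWT. The groups did not overlap, and the log2 fold change was -0.56 (SE 0.09, FDR 0.00153, edgeR). Ccr2 had 5 to 19 reads per IkbkbCA library and 3 to 12 per IkbkbWT library and did not pass the filter.

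Microglia markers summed to 13636 to 22496 CPM in IkbkbCA and 11119 to 16015 CPM in IkbkbWT, with 5 of 14 higher and 1 lower. Per summed microglia marker, all 4 called receptors were called in the same direction, with log2 fold changes of -1.05 for Cx3cr1, -3.72 for Ccr1, 1.02 for Ccrl2 and 0.68 for Cxcr4. Under this scaling 4414 of 11697 genes were called lower and 293 higher, with a median of -0.55 (edgeR).

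In Ikbkb-/- microglia, 4 of 5 tested receptors were called, with Cx3cr1, Ccr1 and Ccrl2 lower and Cxcr4 higher. The targeted gene was at 25.4, 24.8, 18.7 and 22.4 CPM in Ikbkb-/- and at 54.0, 45.6, 53.5 and 54.6 CPM in Ikbkb+/+, 2.30-fold lower (FDR 5.95e-07, edgeR), although 3′ reads do not show the deleted exons themselves. Over 11242 genes, 7.71% were called higher and 6.88% lower, and the groups did not overlap in 18.1%.

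Cx3cr1 was at 991, 961, 1146 and 1161 CPM in Ikbkb-/-. It was at 2891, 2566, 2223 and 1806 CPM in Ikbkb+/+. The groups did not overlap, and the level was 2.23-fold lower (log2 fold change -1.15, SE 0.12, FDR 1.44e-06, edgeR).

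Ccr1 was at 8.47, 12.4, 7.72 and 16.7 CPM in Ikbkb-/- and at 32.9, 36.2, 51.7 and 27.1 CPM in Ikbkb+/+. Every mutant library lay below every control, with a log2 fold change of -1.64 (SE 0.22, FDR 4.38e-05, edgeR). Markers of border-associated macrophages summed to 463 to 800 CPM in Ikbkb-/- and 1589 to 1919 CPM in Ikbkb+/+, and 6 of 6 tested fell, which again moved with Ccr1 and whose part was not tested.

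Ccrl2 was at 28.2, 24.3, 20.6 and 27.9 CPM in Ikbkb-/-. The Ikbkb+/+ libraries held 113, 55.9, 55.5 and 22.6 CPM. The groups overlapped because the fourth control was as low as the mutants, and the log2 fold change was -1.23 (SE 0.32, FDR 0.0130, edgeR), or -0.95 with an FDR of 0.0836 by limma-voom. Neutrophil markers stood at 423, 97.5, 42.6 and 12.3 CPM in the same 4 controls, in the same order as Ccrl2, and at 9.82 to 15.5 CPM in Ikbkb-/-. This order is not particular to neutrophil markers. Cx3cr1 also fell along these 4 controls, Cxcr4 rose, and the total count rose from 2689418 to 7436579. Without the first control the log2 fold change of Ccrl2 was -0.82 (FDR 0.0277, edgeR), and whether neutrophils or depth had a part in it was not tested.

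Cxcr4 was at 322, 298, 238 and 345 CPM in Ikbkb-/- and at 142, 149, 198 and 257 CPM in Ikbkb+/+. The groups overlapped by the fourth control and the third mutant, and the log2 fold change was 0.67 (SE 0.15, FDR 0.00505, edgeR). Ccr2 had 0, 7, 4 and 30 reads in Ikbkb-/- and 17, 12, 22 and 8 reads in Ikbkb+/+ (log2 fold change -0.30, SE 0.59, FDR 0.801, edgeR). The fourth mutant library held 30 of these reads and the other 3 held 7 or fewer, and the estimate ranged from -1.58 to 0.045 over fits without 1 library.

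Microglia markers summed to 17993 to 20796 CPM in Ikbkb-/- and 15705 to 17991 CPM in Ikbkb+/+, with 3 of 14 higher and 3 lower. Per summed microglia marker the log2 fold changes were -1.36 for Cx3cr1, -1.85 for Ccr1, -1.43 for Ccrl2 and 0.46 for Cxcr4, and all 4 were called. Under this scaling 2235 of 11242 genes were called lower and 411 higher, with a median of -0.21 (edgeR). The Y-linked gene Ddx3y, looked at after its values were seen, was at 155 to 178 CPM in Ikbkb-/- and 34.7 to 70.2 CPM in Ikbkb+/+, so that the sex of the pups and the genotype cannot be told apart there. In the IkbkbWT group, Ddx3y was at 1.15 and 2.07 CPM in 2 libraries and at 145 to 172 CPM in the other 3. It was at 70.6 to 103 CPM with tau fibrils and 51.9 to 72.1 CPM with vehicle (log2 fold change 0.45, FDR 0.0306, edgeR). The labels give no sex for any culture, and the part of sex in the results of these cultures was not tested.

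Further cell types the samples could hold were followed by fixed marker lists. Monocyte markers summed to 107 to 460 CPM in IkbkbCA and 27.9 to 55.8 CPM in IkbkbWT, with 2 of 3 tested higher, and to 63.8 to 92.8 CPM in Ikbkb-/- and 29.5 to 47.4 CPM in Ikbkb+/+, with 1 of 2 higher. Oligodendrocyte markers were higher in 5 of 6 cases in Ikbkb-/- and were called in 0 of 6 in IkbkbCA, where 1 IkbkbWT library stood at 4949 CPM. Dendritic cell and B cell markers had 1 lower gene each in both mutants, and in IkbkbCA 1 neutrophil marker of 2 was higher, while in Ikbkb-/- 2 of 3 were lower. Astrocyte markers had 1 higher and 1 lower gene in Ikbkb-/- and none called in IkbkbCA, and of the fibroblast and vessel cell markers 1 was lower in Ikbkb-/-. No neuron marker was called in either mutant, and in PS19 edgeR called 0 of 57 tested genes of all marker lists, with 7 at an unadjusted p under 0.05, of which 4 were microglia markers. With tau fibrils 4 of 6 astrocyte and 4 of 6 neuron markers fell, as did 1 of 4 oligodendrocyte markers, 1 monocyte marker rose and 1 fell, and 1 marker of border-associated macrophages rose. T and NK cell markers never passed the filter, and summed to at most 4.11 CPM in any library. Over all genes 7.31% were called higher and 7.16% lower in IkbkbCA, and 7.71% and 6.88% in Ikbkb-/-. The shares with tau fibrils were 14.5% and 15.4%.

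**Figure D3:**
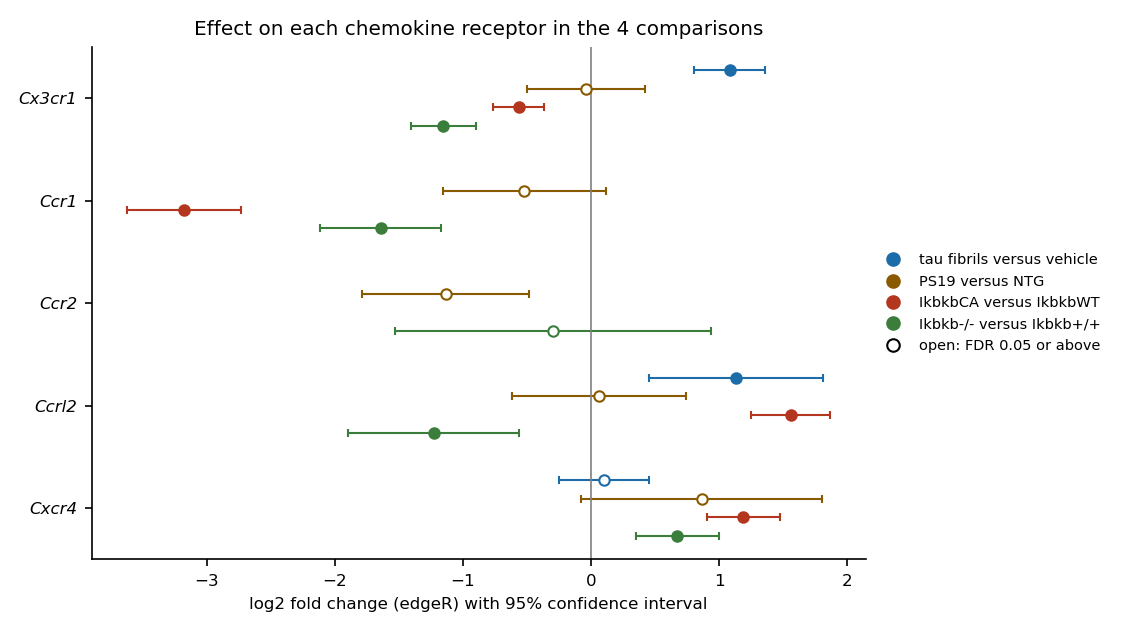
The x axis gives the log2 fold change with its 95% confidence interval, not adjusted for the number of genes, and the y axis the 5 receptors, with 1 colour per comparison. Filled points were called at an FDR under 0.05 (edgeR) and open points were not. Ccr1 lies farthest from 0, at -3.18 in IkbkbCA, and Ccrl2 stands on opposite sides of 0 in IkbkbCA (1.56) and Ikbkb-/- (-1.23).

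Both mutants carry Cx3cr1-CreERT2, so the difference between their effects, fitted on 18 libraries, is free of a fixed effect of that allele. In this contrast 3.12% of 12352 genes were called (edgeR). The Y-linked Ddx3y differed by -2.31 (95% confidence interval -4.56 to -0.07, FDR 0.311, edgeR). The part of the pups' sex in this contrast was not tested. Ccrl2 responded in opposite directions, with a difference on the log2 scale of 2.84 (95% confidence interval 1.97 to 3.71, SE 0.41, FDR 0.000404). Ccr1 fell further in IkbkbCA than in Ikbkb-/-, by -1.50 (-2.22 to -0.78, SE 0.34, FDR 0.0181, edgeR).

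For Cx3cr1 the difference was 0.61 (0.26 to 0.96, SE 0.17, FDR 0.0556, edgeR), the fall being deeper in Ikbkb-/-, and it was called by DESeq2, under total-count scaling and with at least 10 counts in every library. Cxcr4 differed by 0.53 (0.04 to 1.01, FDR 0.286, edgeR) and Ccr2 by 0.72 (-1.19 to 2.64, FDR 0.775, edgeR), so unequal effects on these receptors were not detectable.

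What the mutants shared was read from the average of both effects, in which 19.4% of the genes were called (edgeR). Ccr1 fell by 2.41 on the log2 scale (SE 0.17, FDR 4.51e-09) and Cx3cr1 by 0.85 (SE 0.08, FDR 3.96e-07), and Cxcr4 rose by 0.94 (SE 0.12, FDR 7.66e-06, edgeR). The average for Ccrl2 was 0.15 (SE 0.21, FDR 0.681, edgeR). An average effect and the CreERT2 allele cannot be told apart.

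**Figure D4:**
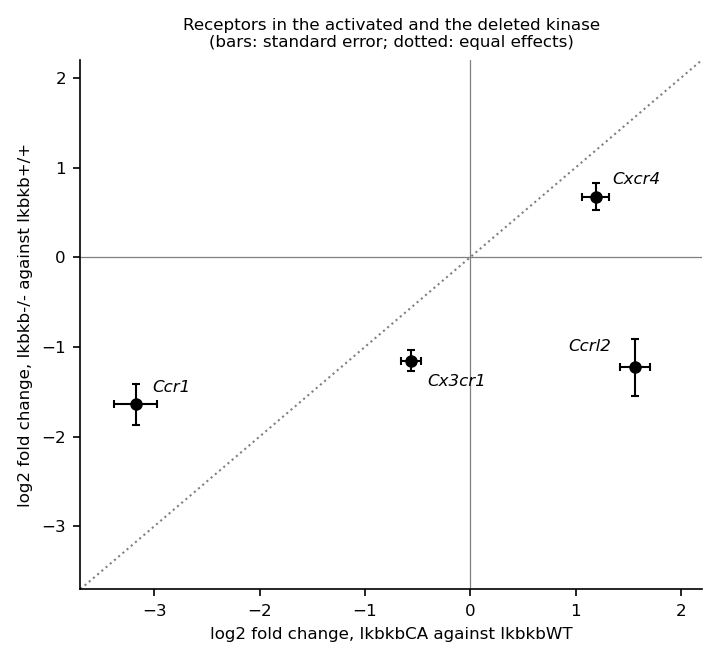
The x axis gives the log2 fold change of IkbkbCA against IkbkbWT and the y axis that of Ikbkb-/- against Ikbkb+/+, with standard errors as bars. Points are the 4 receptors tested in both comparisons, and the dotted line marks equal effects. Ccr1, Cx3cr1 and Cxcr4 have the same sign on both axes, and Ccrl2 is at 1.56 and -1.23.

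The tau experiment and the others share no libraries, and their effects were compared in joint fits. Between tau fibrils and IkbkbCA 9.43% of genes were called, and between PS19 and tau fibrils 8.07% (edgeR). The effect of tau fibrils on Cx3cr1 exceeded that of IkbkbCA by 1.57 on the log2 scale (SE 0.17, FDR 3.42e-06), while Cxcr4 was lower by -1.16 in the same contrast (SE 0.25, FDR 0.00578, edgeR). Ccrl2, which rose in both, differed by -0.50 (95% confidence interval -1.14 to 0.13, FDR 0.337, edgeR). IkbkbCA microglia carry the CreERT2 sequence in 1 Cx3cr1 allele and the tau cultures do not, so the altered allele enters the difference of 1.57 and cannot be told apart from it.

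A difference of 3.01 for Ccr1 (SE 0.73, FDR 0.0117, edgeR) was also called between tau fibrils and IkbkbCA, but it sets the fall in IkbkbCA against libraries of at most 8 reads. PS19 and tau fibrils differed in their effect on Cx3cr1, by -1.03 (SE 0.26, FDR 0.0128, edgeR). Per summed microglia marker this difference was 0.13 (SE 0.26, FDR 0.670, edgeR) and was no longer called. For Ccrl2 the difference was -0.98 (-1.94 to -0.02, FDR 0.216), and Ccr1 (FDR 0.838), Ccr2 (FDR 0.0672) and Cxcr4 (FDR 0.360, edgeR) were not called either. Per summed microglia marker Cxcr4 (2.08, FDR 0.00371) and Ccr2 (-5.86, FDR 0.0356, edgeR) were called, the latter against tau and vehicle libraries of at most 2 reads. Under this scaling 7583 of 11852 genes were called higher and 189 lower, with a median difference of 1.28 (edgeR). A call of Cxcr4 as higher was thus shared with most genes.

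The ligands of these receptors were measured in the same libraries, 10 genes in all. With tau fibrils 7 could be tested, of which 3 rose and 1 fell (median log2 fold change 0.80, against -0.01 over all genes). Over all genes 14.5% were called higher and 15.4% lower. Ccl5, a ligand of Ccr1, went from 43.9 CPM (mean, n = 4) with vehicle to 3455 CPM, a 78.2-fold rise. Ccl9 rose 5.27-fold and Ccl3 2.08-fold, both ligands of Ccr1, whose own transcript had at most 8 reads in these cultures. Cx3cl1, the ligand of Cx3cr1, fell by 0.79 on the log2 scale (SE 0.20, FDR 0.00283, edgeR).

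In IkbkbCA 2 of 8 tested ligands rose and 2 fell (median -0.15, against -0.05 over all genes). Over all genes 7.31% were called higher and 7.16% lower. Ccl5 rose 21.5-fold and Ccl12, a ligand of Ccr2, 6.40-fold. Ccl6 fell to 0.394 and Ccl3 to 0.690 of the control level, both ligands of Ccr1.

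In Ikbkb-/- 2 of 8 rose and 5 fell (median -0.51, against 0.00 over all genes). Over all genes 7.71% were called higher and 6.88% lower. Ccl5 (11.7-fold) and Ccl12 (3.36-fold) were higher here too. Among the 5 lower ligands were Ccl7 (log2 fold change -0.98) and Ccl9 (-0.88).

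In PS19 edgeR called 0 of 9 tested ligands (median 0.43, against 0.00 over all genes), with 4 at an unadjusted p under 0.05. DESeq2 called 4 and limma-voom 0. Of all 11323 genes, edgeR called 0.0707% higher and 0% lower, DESeq2 called 98 genes and limma-voom 4. Rarres2, the ligand of Ccrl2, did not pass the filter in any comparison, and Cxcl12, the ligand of Cxcr4, passed in PS19 and NTG alone, where its log2 fold change was 0.43 (SE 0.31, FDR 0.727, edgeR).

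**Figure D5:**
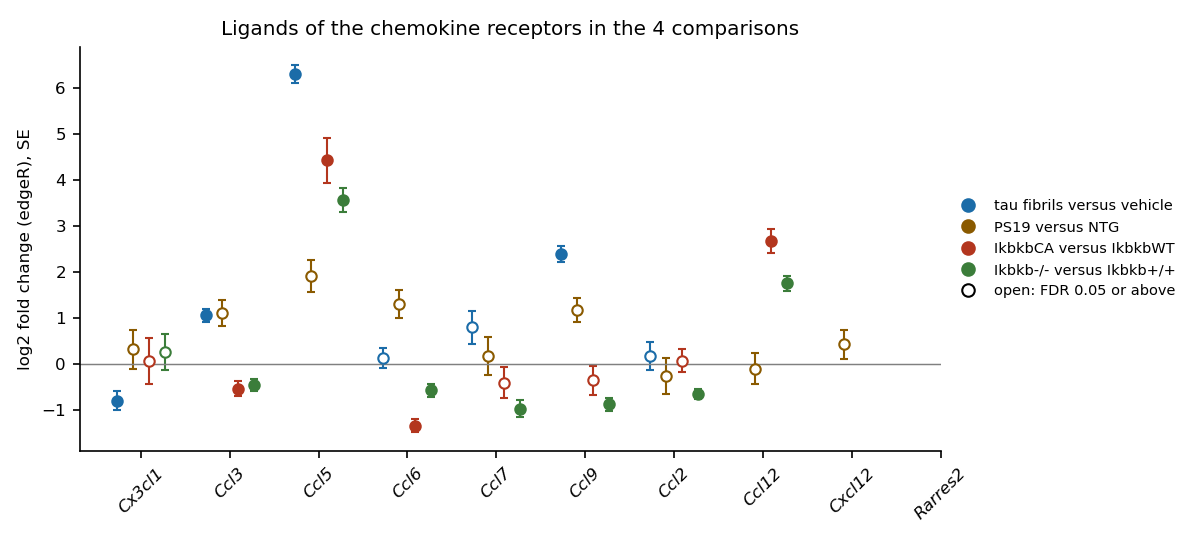
The y axis gives the log2 fold change (edgeR) with its SE and the x axis the 10 ligands, with 1 colour per comparison. Filled points were called at an FDR under 0.05, open points were not, and a missing point means that the gene did not pass the filter on low counts. Ccl5 has the largest values, 6.29 with tau fibrils, 4.42 in IkbkbCA and 3.55 in Ikbkb-/-.

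The signalling and desensitisation genes that chemokine receptors share, 27 in the list, were counted in the same libraries. With tau fibrils 13 of 24 tested rose and 1 fell (median log2 fold change 0.55, against -0.01 over all genes). Beside this, 14.5% of all genes were called higher and 15.4% lower. The 4 with the largest change were the small GTPase Rac2 (log2 fold change 2.43), Pik3r5, a subunit of the PI3-kinase that G proteins activate (2.28), the arrestin Arrb2 (1.79) and the G protein regulator Rgs14 (1.57). The microglia markers of the same libraries had a median of 1.11.

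In IkbkbCA 3 of 27 rose and 1 fell, namely Rgs1 (0.72), Prex1 (0.48), Gnb1 (0.23) and the arrestin Arrb1 (-0.54), beside 7.31% higher and 7.16% lower over all genes. In Ikbkb-/- 2 rose and 3 fell, with Rgs2 at 0.55, Rgs1 at -0.55, Pik3r5 at -0.51 and the receptor kinase Grk6 at -0.50, beside 7.71% and 6.88% over all genes. In both mutants the counts are near the background and say nothing particular of these genes. In PS19 edgeR, DESeq2 and limma-voom called 0 of 27, with 4 at an unadjusted p under 0.05 by edgeR.

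For each receptor the genes with the most similar pattern were sought among 13721 others over 34 libraries, after the mean of each comparison's group means had been subtracted. Ccrl2 was most like Nfkbia (Pearson r = 0.87), an inhibitor of NF-κB that NF-κB itself induces, Cd74 (0.85) and H2-Ab1 (0.83), which serve antigen presentation. Ccr1 was most like Slc9a9 (0.82), Lyve1 (0.82), a marker of border-associated macrophages, and the chemokine Ccl24 (0.81). Cxcr4 was most like Sdcbp (0.82), Mdm2 (0.81), the regulator of p53, and Cspg4 (0.81).

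Cx3cr1 was most like Tmem109 (0.85), Sla (0.85) and Itga9 (0.84). Ccr2, at few reads in the cultures, had no gene above the 0.64 of Gm13383, followed by Hemk1 (0.64) and 4930578M01Rik (0.62). Among the receptors themselves the values ran from -0.62 between Ccr1 and Cxcr4 to 0.55 between Cx3cr1 and Ccr1. These values describe points that share groups, depth and composition.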

How the data were processed

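Per the study's methods, QuantSeq 3′ mRNA-Seq reads were mapped to GRCm38 with GENCODE annotation by the BlueBee Lexogen pipeline. The submitters' processing notes name STAR, RSEM, edgeR and limma, without versions. The authors deposited raw counts per gene, whole numbers for 47643 Ensembl genes per library, followed by 5 lines of reads not assigned to a gene, which were left out. Reads outside genes were 12.4% to 38.3% per library. Symbols came from GENCODE M21 (47224 identifiers matched). None of the 56 pairs of libraries within groups held identical values.

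Counts were analysed in R 4.3.3 with edgeR 4.0.16 (filterByExpr with minimum count 10 and minimum total 15, TMM, quasi-likelihood test). CPM uses the TMM factors of the comparison, and log2 CPM for likeness a prior count of 2. The standard error comes from the log2 fold change and its F statistic. Alternatives were DESeq2 1.42.0, limma-voom (limma 3.58.1), RLE and total-count scaling, 2 other filters, leaving out each library, age as a covariate in PS19, 1 fit of 18 libraries and, chosen after the data were seen, scaling to 14 microglia markers. The procedure was tested on simulated counts. Of its calls at an FDR under 0.05, 3.59% were false with tau fibrils, 2.63% in PS19, 4.76% in IkbkbCA and 9.71% in Ikbkb-/-. For PS19 minus tau fibrils 8.57% were false. Of changes of 1 on the log2 scale it recovered 67.1% with tau fibrils, 32.7% in PS19, 68.8% in IkbkbCA and 89.9% in Ikbkb-/-. For differences of effects it recovered 18.0% in PS19 minus tau fibrils, 26.9% in tau fibrils minus IkbkbCA and 46.3% in IkbkbCA minus Ikbkb-/-. A difference of this size that was not called may thus have been missed.

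Named genes are the 5 receptors, Ikbkb, at most 4 called genes per pathway list and comparison by absolute log2 fold change, and the 3 most similar genes per receptor, and marker genes, Cxcl12, Rarres2 and Ddx3y were added to these. A list of other chemokine receptors is not reported here. The receptors and lists were chosen with earlier results of these data known. The groups share replicate numbers given in accession order, which pair no samples.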

Additional observations from a re-analysis of the deposited data

Results flagged for a closer look

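One library stood apart within its group. Cxcr4 was at 214 CPM in the fourth tau library, against 158 CPM in the nearest of the other 3, a gap of 0.939 of the group's range, past Dixon's 95% critical value for 4 samples. Chance alone sets apart about 1 group in 20, and 40 groups of receptor and condition were examined.

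The remaining results were set apart because the effects of 2 experiments differed in the test of the difference itself (edgeR, FDR under 0.05). On the log2 scale, IkbkbCA minus Ikbkb-/- was 2.84 for Ccrl2 and -1.50 for Ccr1. The controls in this contrast had unlike levels of Ccrl2, 60.5 CPM in Ikbkb+/+ and 17.5 CPM in IkbkbWT. Tau fibrils minus IkbkbCA was 1.57 for Cx3cr1, -1.16 for Cxcr4 and 3.01 for Ccr1, the last against tau and vehicle libraries with at most 8 reads of Ccr1. PS19 minus tau fibrils was -1.03 for Cx3cr1, and 0.13 (FDR 0.670) per summed microglia marker, where the median over all genes was 1.28. The tau experiment, the adult microglia and the Ikbkb cultures differ in age, source of cells and tamoxifen exposure, and IkbkbCA also carries CreERT2 in 1 Cx3cr1 allele. These cannot be told apart from the contrasts between experiments.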

How the results depend on the processing

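Of 269 values under other settings and 178 values without 1 library, 248 and 166 were kept. For a log2 fold change this means the same direction and the same side of the threshold. For a count of receptors called it means an equal or close count, such as 3 in place of 4 in Ikbkb-/- by limma-voom. With tau fibrils, 1 receptor was called in place of 2 with at least 10 counts in every library (Ccrl2 then drops out of the test) and also 1 per summed microglia marker, where Cx3cr1 (0.026), Ccrl2 (0.090) and Cxcr4 (-0.92) moved as given above. Cxcr4 was at -0.056 under total-count scaling. In PS19, without a filter 1 receptor was called in place of 0, Ccr2 with a log2 fold change of -1.09, and Cx3cr1 was at 0.0059, while Cx3cr1 was at 0.15 per microglia marker and Ccrl2 at -0.38 with age as a covariate. In Ikbkb-/- limma-voom gave Ccrl2 -0.95, not called. The Cx3cr1 difference between IkbkbCA and Ikbkb-/- was called at 0.57 under total-count scaling, 0.62 by DESeq2 and 0.63 with at least 10 counts in every library. Per microglia marker, the difference between PS19 and tau fibrils was 0.13 for Cx3cr1, 0.75 for Ccr1 and 0.15 for Ccrl2. It was -5.86 for Ccr2 and 2.08 for Cxcr4, both called. Over all genes that contrast then had a median of 1.28, with 7583 of 11852 called higher. The Ccrl2 average of both mutants was -0.22 per microglia marker, against a median of -0.37 over all genes. Unless stated, the cause was not tested.

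Without 1 library, Ccrl2 with tau fibrils ran from 0.98 to 1.28, Cxcr4 from -0.028 to 0.29 and the receptors called from 1 to 2. In PS19, Cx3cr1 ran from -0.18 to 0.063 and Ccrl2 from -0.21 to 0.29, and in Ikbkb-/- Ccr2 from -1.58 to 0.045. No paired analysis was possible because the replicate numbers are in accession order and the labels pair no samples. Depth limits Ccr1 and Ccr2 in the tau experiment and Ccr2 in every culture.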
